A study of Homo sapiens with 24 samples.

Results

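Precursor miRNAs of A2780 cells were compared between 6 days of hypoxia (libraries 11 and 12) and 6 days of normoxia (libraries 9 and 10). The precursors described here are the 166 of 939 in the deposited precursor table that had at least 1 RPKM (reads per kilobase of transcript and 1e6 reads) in at least 2 of the 12 libraries of the series. The other 773 were not tested, and 477 of them were at 0 in every library. A2780, a long-used human cell line from an epithelial ovarian cancer, was grown in every group in RPMI medium with fetal bovine serum under 5% CO2. The hypoxia groups were kept in a chamber at 1% oxygen, and the normoxia groups had no further treatment in the labels. The series has 6 groups of 2 libraries, normoxia and hypoxia at 6 hr, 48 hr and 6 days, sequenced on a SOLiD instrument after depletion of ribosomal RNA. No label states that both libraries of 1 group are from separate cultures, so each p-value measures only the spread between these libraries, which may be technical.

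A miRNA gene is transcribed into a long primary transcript, which DROSHA and DGCR8 cut in the nucleus into a hairpin of the kind measured here. XPO5 carries the hairpin to the cytoplasm, DICER1 cuts it to a short duplex, and an Argonaute protein keeps 1 strand, the mature miRNA, whose seed (bases 2 to 8) pairs with target mRNAs. In low oxygen the transcription factor HIF binds hypoxia response elements in DNA, and the miRNA best known as its target is miR-210, which lowers mitochondrial respiration genes such as ISCU. Because these libraries were made from total RNA with reads counted over hairpins, a value can hold pre-miRNA, primary transcript or any host transcript that runs through the hairpin, and says nothing of the amount of mature miRNA.

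After 6 days, 18 precursors were higher in hypoxia past the threshold (an adjusted p under 0.05 from limma on log2(RPKM + 0.5)), 10.8% of those tested, and 0 were lower. Mature sequences of those that the reference table held are shown because the seed, in capitals, decides which of the precursors could act on the same targets. They are RefSeq's on GRCh38.p14, written 5′ to 3′, with 1 arm for each precursor. For mir-21, mir-130a, mir-199b and mir-425 the reference held only the arm shown. A seed shared through their other arm cannot be seen here.
miR-210-3p, from mir-210: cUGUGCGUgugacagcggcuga
miR-182-5p, from mir-182: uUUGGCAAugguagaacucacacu
miR-29b-3p, from mir-29b-2: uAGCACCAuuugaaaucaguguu
miR-455-3p, from mir-455: gCAGUCCAugggcauauacac
miR-16-5p, from mir-16-1: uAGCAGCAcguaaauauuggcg
miR-21-5p, from mir-21: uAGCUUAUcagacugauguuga
miR-330-3p, from mir-330: gCAAAGCAcacggccugcagaga
miR-23a-3p, from mir-23a: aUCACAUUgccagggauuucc
miR-10a-5p, from mir-10a: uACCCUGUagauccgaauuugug
miR-199b-3p, from mir-199b: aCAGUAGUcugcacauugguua
miR-328-3p, from mir-328: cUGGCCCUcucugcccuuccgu
miR-193b-3p, from mir-193b: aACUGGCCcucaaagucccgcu
let-7a-5p, from let-7a-2: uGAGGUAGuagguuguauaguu
miR-191-5p, from mir-191: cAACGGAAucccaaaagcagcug
miR-130a-5p, from mir-130a: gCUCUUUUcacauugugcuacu
miR-425-3p, from mir-425: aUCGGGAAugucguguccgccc
The remaining 2, mir-30b and mir-30d, are named only.

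The hairpin of mir-210, the precursor with the highest fold change, is shown whole with both mature arms in capitals. It lies at chr11:568089-568198 on the minus strand of GRCh38.p14, inside the long non-coding RNA gene MIR210HG.
mir-210 hairpin: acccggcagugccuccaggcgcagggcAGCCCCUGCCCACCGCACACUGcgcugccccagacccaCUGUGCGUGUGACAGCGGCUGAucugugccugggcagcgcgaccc
The 300 bases around the start of MIR210HG (chr11:568408-568707, minus strand) held 1 match to ACGTG or its reverse complement CACGT, in capitals here. These letters are 1 form of the core of a hypoxia response element. The form GCGTG, which these bases also hold, was not searched for and is left in lower case. Of 27305 promoters of the same length, 21.6% held such a match, and a match is a description of these letters, not a binding site.
MIR210HG promoter: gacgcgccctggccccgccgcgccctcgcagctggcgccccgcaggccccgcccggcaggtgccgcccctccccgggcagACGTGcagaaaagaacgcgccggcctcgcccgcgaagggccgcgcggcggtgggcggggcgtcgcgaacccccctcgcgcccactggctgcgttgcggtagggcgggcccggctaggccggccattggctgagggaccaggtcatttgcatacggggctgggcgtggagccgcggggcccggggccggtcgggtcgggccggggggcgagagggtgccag

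The hypoxia-associated precursor mir-210 rose the most. Its RPKM was 0 and 0.600 in the normoxia libraries 9 and 10 and 10.7 and 9.04 in the hypoxia libraries 11 and 12, from 0, 2, 39 and 25 inferred reads. Both hypoxia libraries lay far above both normoxia libraries, with a log2 fold change of 3.80 (SE 0.50, adjusted p = 0.00107, n = 2 libraries a group). The groups were also apart at the earlier times: RPKM was 0.351 and 0.696 in normoxia against 2.13 and 2.04 in hypoxia at 6 hr, and 0 and 0 against 7.81 and 7.2 at 48 hr. The log2 fold change was 1.36 at 6 hr (adjusted p = 0.673) and 4.0 at 48 hr (adjusted p = 0.00063), where mir-210 was the single call, 0.602% of those tested. Its effect at 6 days minus that at 48 hr was -0.20 (95% interval -1.75 to 1.35), and minus that at 6 hr it was 2.44 (0.89 to 3.99, adjusted p = 0.0752). Its call at 6 days was kept in 13 of 14 alternative settings and lost in the fit of only the 4 libraries of 6 days, with an adjusted p of 0.0586.

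Other precursors with known links to hypoxia or to cancer rose at intermediate levels. mir-21, an abundant oncogenic miRNA in many tumours, had 6.05 and 4.59 RPKM in normoxia and 42.7 and 18.8 in hypoxia (log2 fold change 2.32, SE 0.54, adjusted p = 0.024). Library 11 held more than library 12, and both stood above normoxia. mir-23a, a member of the cluster with mir-27a and mir-24-2, had 3.21 and 3.17 RPKM in normoxia and 19.4 and 14.7 in hypoxia (2.24, SE 0.43, adjusted p = 0.00891). mir-193b, from a tumour-suppressor family, had 5.25 and 2.39 against 11.3 and 14.8 (1.72, SE 0.47, adjusted p = 0.0371). For both, the lowest hypoxia library was above the highest normoxia library, as for 50% of all tested precursors.

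The neighbouring hairpins mir-182 and mir-183 lie in a cluster that is often raised in carcinomas, and differed in their call. mir-182 had 0.610 and 1.5 RPKM in normoxia and 7.94 and 9.40 in hypoxia (log2 fold change 2.62, SE 0.48, adjusted p = 0.00891). mir-183 had 1.52 and 3.00 against 5.48 and 4.34 (1.01, SE 0.47, adjusted p = 0.158), which did not pass. The difference between the neighbours was not tested. mir-10a, which lies in the HOXB cluster, had 8.84 and 7.51 RPKM in normoxia and 46.3 and 33.3 in hypoxia (2.20, SE 0.43, adjusted p = 0.00891).

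Pairs of neighbouring hairpins, the kind that is often cut from 1 transcript, were called together in 2 of 21 groups of tested hairpins within 10 kb of each other, while 2 groups had 1 member called and 17 had none. Of all tested precursors 10.8% were called, and whether neighbours were called together more often than others was not tested. mir-30b and mir-30d, of the miR-30 family, lie next to each other. mir-30b had 0 and 0 RPKM in normoxia and 2.05 and 3.16 in hypoxia. Set against a floor of 3 reads per library, that is at least 2.30-fold higher, and its adjusted p was 0.00891. mir-30d had 2.39 and 2.36 RPKM in normoxia and 13.3 and 15.9 in hypoxia (log2 fold change 2.39, SE 0.66, adjusted p = 0.0371). The other pair, mir-191 and mir-425, lies within DALRD3. mir-191 had 13.8 and 20.5 RPKM in normoxia and 52.1 and 42.3 in hypoxia (1.45, SE 0.38, adjusted p = 0.0321). mir-425 had 2.31 and 1.90 against 7.97 and 7.77 (1.69, SE 0.40, adjusted p = 0.024). In both pairs the hypoxia libraries lay above the normoxia libraries, as they did for 50% of all tested precursors.

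The growth-restraining families miR-16, miR-29 and let-7 had called members, each through 1 of several gene copies. Of 10 tested let-7 precursors 1 was called, and of 3 tested precursors with the seed of miR-16 or of miR-29, 1 each. As 10.8% of all tested precursors were called, these calls are no result about the families. mir-16-1 had 0 and 1.11 RPKM in normoxia and 4.06 and 4.02 in hypoxia (log2 fold change 2.34, adjusted p = 0.0459). Its copy mir-16-2, with the same mature sequence, had 0 and 1.22 against 4.84 and 2.45 (2.10, adjusted p = 0.121). mir-29b-2 had 0 and 0 against 3.35 and 1.47, at least 1.96-fold higher against the same floor (adjusted p = 0.0263), and mir-29b-1 had 0.414 and 0.408 against 2.98 and 4.42 (2.18, adjusted p = 0.0504). The copies thus sat on opposite sides of the threshold with similar values. let-7a-2 had 3.26 and 2.75 RPKM in normoxia and 10.0 and 9.39 in hypoxia (1.55, adjusted p = 0.0321). The other copies of let-7a, which were more abundant, did not pass: let-7a-1 had 16.8 and 12.4 against 35.8 and 24.8 (1.02, adjusted p = 0.158).

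The remaining 5 called precursors were low. mir-455 had 0 and 0.344 RPKM in normoxia and 2.82 and 2.90 in hypoxia (log2 fold change 2.37, adjusted p = 0.0249). mir-330 had 0 and 0.351 against 2.24 and 2.96 (2.24, adjusted p = 0.0417). mir-199b had 0.914 and 0.901 against 9.04 and 3.61 (2.15, adjusted p = 0.0263). In these 3, a normoxia library held at most 3 inferred reads. mir-130a, of a family known in angiogenesis, had 1.13 and 1.48 RPKM in normoxia and 6.77 and 5.81 in hypoxia (1.91, adjusted p = 0.0456). mir-328 had 0 and 0 against 1.21 and 1.59, from 3 inferred reads in each hypoxia library, at least 1.05-fold higher (adjusted p = 0.024). The bound for mir-328 is close to no change.

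**Figure D1:**
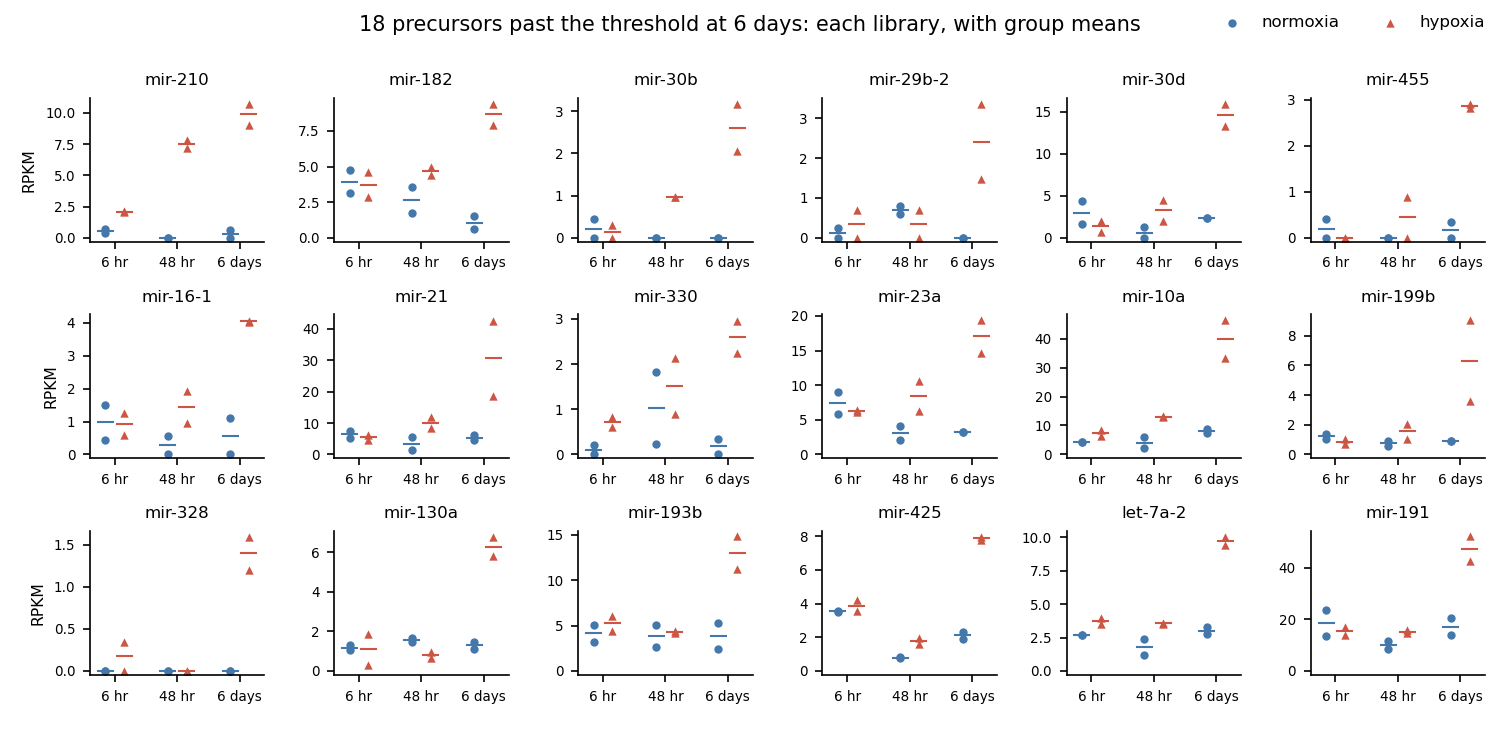
RPKM (y axis, linear, from 0, scaled for each panel) of the 18 precursors past the threshold at 6 days, with a point for each of the 12 libraries (circles normoxia, triangles hypoxia) and a bar for each group mean, at 6 hr, 48 hr and 6 days on the x axis. At 6 days both triangles lie above both circles in all 18 panels, beside 83 of all 166 tested precursors (50%). The 18 were chosen on these same libraries, so their separation at 6 days is no separate support. mir-210 shows the same separation at 6 hr and 48 hr.

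The rise was broad rather than limited to these 18. Of the 166, 83 (50%) were higher in both hypoxia libraries than in both normoxia libraries, 13 (7.83%) were lower in both, and 70 overlapped. A fold change of at least 2 on the log2(RPKM + 0.5) scale was seen for 64 upward and 5 downward. The median log2 fold change was 0.74, or 0.70 with precursors at 0 in a group set at their bound, while the median of the 11933 tested genes of the same libraries was 0.04. RPKM is a share of each library's reads, so more hairpin RNA and less of other RNA per cell, and fewer cells of a type and less RNA per cell, cannot be told apart. Centring each library on its median precursor moved the median to -0.11 and the calls to 7, of which 2 were higher and 5 lower, so 28.6% of the calls were higher instead of 100%. The 2 higher calls were mir-210 (log2 fold change 2.95, adjusted p = 0.00485) and mir-182 (1.77, adjusted p = 0.028). The 5 lower calls were mir-99b, mir-198, mir-1207, mir-663 and mir-886, each with an adjusted p of 0.0206. Quantile normalization left 1 call, mir-210, and 51.2% of precursors above 0 instead of 75.3%. Centring on the median gene left 17 calls, all higher. Relative to the median precursor, then, mir-210 and mir-182 still rose, and the other 16 did not pass.

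**Figure D2:**
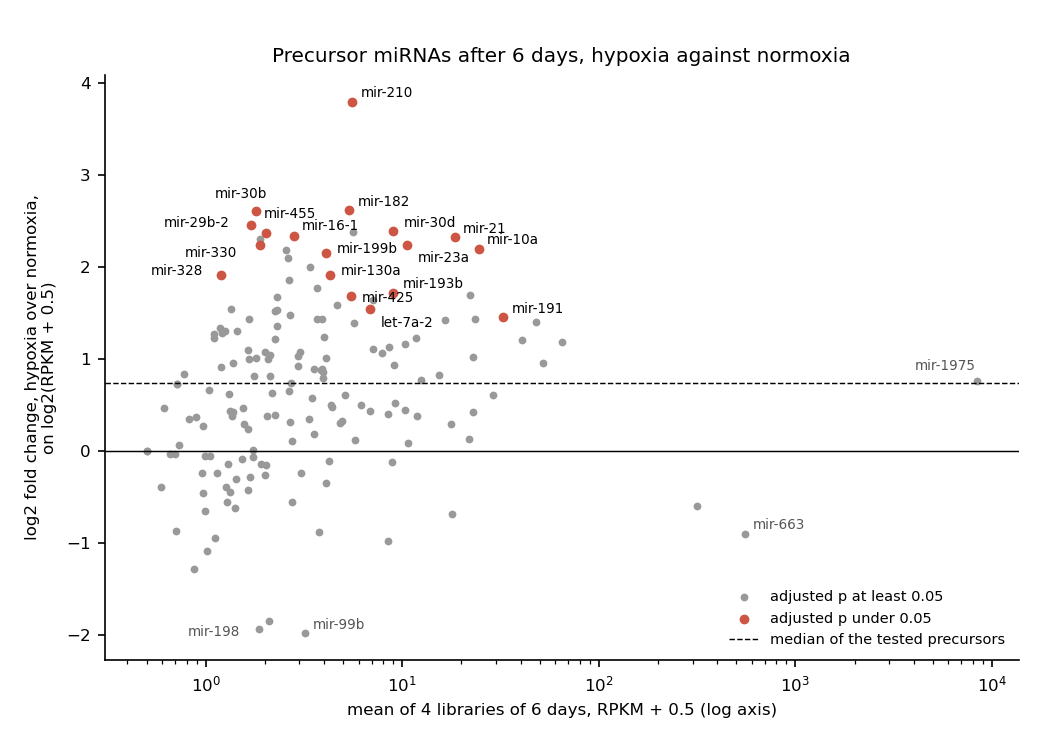
Log2 fold change at 6 days, hypoxia over normoxia on log2(RPKM + 0.5) (y axis), against the mean of the 4 libraries of 6 days in RPKM + 0.5 (x axis, log scale), for the 166 tested precursors. Red points are the 18 past the threshold, all above 0, and the dashed line is the median of 0.74.

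The number of calls rested on single libraries. With library 9 left out 1 call was made, with library 10 left out 7, with library 11 left out 4 (3 higher and 1 lower, mir-99b), and with library 12 left out 7. Of the 18 calls, 17 were lost without library 9, 13 without library 10, 15 without library 11 and 11 without library 12. The call of mir-210 was kept in each of these. With the 4 libraries of 6 days alone 0 precursors passed in limma, while 51 had an unadjusted p under 0.05. In the full fit, 47 had an unadjusted p under 0.05 and were higher, and 4 were lower. mir-182 was called in 11 of 14 alternatives, mir-23a in 9, mir-10a and mir-21 in 8 each, mir-30b in 8 of 13, and the other 12 in 3 to 6 of 13 or 14.

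The filter used the same libraries. There were 15 precursors that reached it only with the help of libraries 11 and 12, and 4 of these were called. All 4 had at least 1 RPKM in libraries 11 and 12 and in no other library. Their direction followed from the filter, so their calls are no separate support for a rise. These 4 lie among mir-30b, mir-29b-2, mir-455, mir-330, mir-199b and mir-328. Apart from mir-210, which passed 1 RPKM at earlier times, only those called precursors had under 1 RPKM in both normoxia libraries of 6 days. On the libraries of 6 hr and 48 hr alone, 141 precursors reached it, and of these 14 were called higher at 6 days and 0 lower. Among the 141, both hypoxia libraries were higher in 74 and lower in 10, with a median log2 fold change of 0.76. The rise was thus also seen where the filter did not use the 6 days libraries, though these 141 are part of the same 166.

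None of the 40 precursors with a log2 fold change below 0 passed. The smallest adjusted p among them was 0.0504, for mir-198, a hairpin within the transcript of FSTL1, with 2.70 and 2.13 RPKM in normoxia and 0 and 0.641 in hypoxia (log2 fold change -1.94). mir-99b, clustered with let-7e and mir-125a, had 5.75 and 2.83 RPKM in normoxia and 2.15 and 0 in hypoxia (-1.99, adjusted p = 0.0637). Its neighbour mir-125a went the other way, with 37.4 and 41.5 against 89.3 and 91.1 (1.18, adjusted p = 0.0504). mir-1207 had 3.08 and 2.28 RPKM in normoxia and 1.04 and 0 in hypoxia (-1.85, adjusted p = 0.0574). All of these had non-overlapping libraries and an adjusted p above the threshold. mir-198, mir-99b and mir-1207 were picked among non-overlapping changes, and 7.83% of all tested precursors were lower in this way. Inferred reads in libraries 9 to 12 were 5, 4, 0 and 1 for mir-198. They were 12, 6, 5 and 0 for mir-99b, and 8, 6, 3 and 0 for mir-1207. Whether mir-198, mir-99b and mir-1207 passed depended on the setting. mir-198 was called lower with a pseudocount of 1 (adjusted p = 0.037), with no intensity trend (0.0469), and without the normoxia library 1 or 2 of 6 hr (0.0411 and 0.0431). mir-1207 was called lower with a pseudocount of 1 (0.0453), and mir-99b under the stricter filter, at least 2 RPKM in at least 4 libraries (0.0495), and without library 11 (0.0197).

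The 3 hairpins of highest level were mir-1975, mir-663 and mir-1826. mir-1975, which overlaps a Y RNA, had 7232 and 5094 RPKM in normoxia and 13300 and 7954 in hypoxia (log2 fold change 0.76, adjusted p = 0.355, and -0.086 after centring on the median precursor). mir-1826 had 479 and 223 RPKM in normoxia and 466 and 99.6 in hypoxia (-0.60, adjusted p = 0.627), which overlapped. mir-663, in ribosomal RNA-like sequence, had 877 and 564 against 453 and 313 (-0.90, adjusted p = 0.158). mir-886, now known as a vault-like RNA, was low, with 4.43 and 4.37 against 1.74 and 2.63 (-0.89, adjusted p = 0.158). Of 13 tested hairpins in the list of those overlapping structured RNAs, 0 passed (10.8% of all tested), 4 were higher without overlap (50% of all tested) and 2 lower (7.83%), and the median was 0.11, beside 0.74 for all tested. Of abundant hairpins outside that list, mir-103-1, in an intron of PANK3 and tied to metabolic control, had 26.6 and 24.6 against 76.9 and 61.2 (1.41, adjusted p = 0.0517), and mir-23b had 19.7 and 28.6 against 60.3 and 51.2 (1.21, adjusted p = 0.0504).

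Of 20 tested precursors in the list of hypoxia-regulated miRNAs, which holds 27 in the table, 4 were called (mir-210, mir-21, mir-23a and mir-193b), beside 10.8% of all tested precursors. In 19 both hypoxia libraries were the higher (50% of all tested), none was the lower (7.83% of all tested), and the median was 1.4, beside 0.74 for all tested. The same shares of all tested apply to the lists that follow. Members of the hypoxia-regulated list are not separate observations, as several lie within 10 kb of each other, such as mir-23a, mir-27a and mir-24-2. The lists were also chosen with earlier results of these data known. Of 10 tested members of miR-17-92 and its paralog clusters, which promote proliferation, 0 passed (10.8% of all tested), 4 were higher without overlap, and the median was 0.75, or 0.57 with bounds. In that list mir-106b had 2.86 and 2.42 RPKM in normoxia and 1.10 and 3.88 in hypoxia, which overlapped. Of 10 let-7 precursors 1 passed and 6 were higher without overlap (median 0.79), near the shares of all tested. Of 7 tested growth-arrest precursors 2 passed (median 2.10, or 0.97 with bounds), and of 6 oncogenic ones 2 passed (median 0.88). The 2 tested p53-linked precursors, mir-34a and mir-107, were both higher without overlap and did not pass. mir-34a had 0.914 and 0.300 RPKM against 3.83 and 2.17 (log2 fold change 1.68, adjusted p = 0.0569). None of 52 precursors of the 14q32 imprinted cluster and none of 54 of the chromosome 19 and embryonic clusters reached the filter.

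**Figure D3:**
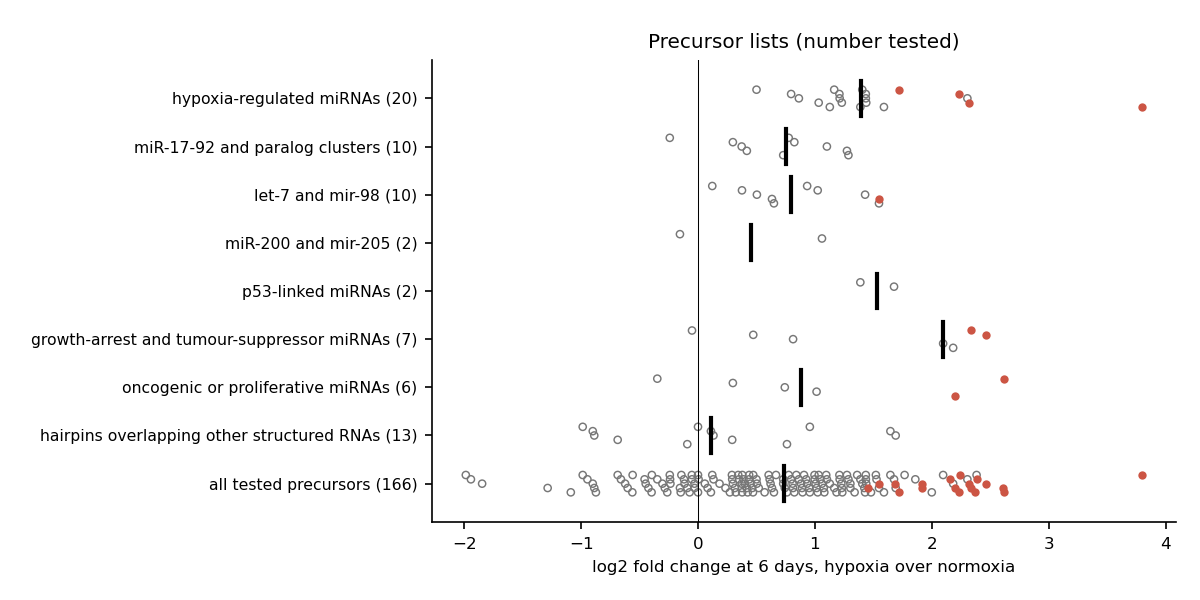
Log2 fold change at 6 days (x axis) of the tested precursors in each list (y axis, number tested in brackets), with filled red points past the threshold, open grey points not past it, and a bar at the median of each list. The bar of the hypoxia-regulated list is at 1.4 and that of hairpins overlapping structured RNAs at 0.11, beside 0.74 for all tested precursors.

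Precursors that share a seed were compared with each other. The seed AGCAGCA of mir-15b, mir-16-1 and mir-16-2 had log2 fold changes from 0.47 to 2.34, with 1 of 3 called. The seed AGCACCA of mir-29a, mir-29b-1 and mir-29b-2 ran from -0.05 to 2.46, with 1 of 3 called. mir-23a (2.24) and mir-23b (1.21) share the seed UCACAUU, and 1 of them was called. mir-193a (-0.24) and mir-193b (1.72) share ACUGGCC, and the change of the first had overlapping libraries. The 10 let-7 precursors share GAGGUAG and ran from 0.12 to 1.55. Members of these families differed in level and in call, and the differences between them were not tested. Each family named here holds a called precursor, and 10.8% of all tested precursors were called. The mix of calls is thus no result about seeds. In composition the called hairpins did not stand apart: the median GC content was 53.4% in 16 called and 54.0% in 120 others with a RefSeq hairpin, and the median length was 89 and 86 bases.

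Of the same 18 precursors, 9 had a log2 fold change above 0 at 6 hr and 15 at 48 hr. At 6 hr 0 of 166 passed (10 with an unadjusted p under 0.05 in limma), and the median of the 18 was -0.03 against -0.10 for all tested. At 48 hr mir-210 alone passed, 17 had an unadjusted p under 0.05, and the median of the 18 was 0.79 against 0.30 for all. These medians at 6 days were 2.24 and 0.74, where the former follows from the choice of the 18. The tests of the difference of effects gave 0 calls in either contrast: 13 precursors had an unadjusted p under 0.05 for 6 days minus 48 hr, 11 of them higher (smallest adjusted p = 0.345), and 44 for 6 days minus 6 hr, 37 of them higher (smallest adjusted p = 0.0752). A larger effect at 6 days than at the earlier times was thus not shown past the threshold for any precursor.

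Many miRNA hairpins lie inside a host gene and can be transcribed with it. The gene table of the same libraries held a tested host for 78 tested precursors, 66 different genes, of which 11 rose (against 23.9% of all tested genes) and 20 fell (against 18.3%, and 42.2% in either direction), with a median log2 fold change of -0.12. VMP1, which overlaps mir-21, had 26.5 and 26.7 RPKM in normoxia and 26.4 and 22.6 in hypoxia (-0.12, adjusted p = 0.387). DALRD3, host of mir-191 and mir-425, fell from 7.25 and 8.73 to 6.47 and 5.33 (-0.41, adjusted p = 0.0409), while both of its hairpins rose. SMC4, a condensin subunit and host of mir-16-2 and mir-15b, fell from 26.5 and 27.7 to 16.6 and 17.4 (-0.66, adjusted p = 0.000444). MCM7, a replication helicase subunit and host of mir-25 and mir-106b, fell from 43.3 and 44.9 to 24 and 21.9 (-0.93, adjusted p = 0.000205), and neither hairpin passed. The call of DALRD3 was lost without library 10 (adjusted p = 0.25) or library 12 (0.245). Host and machinery genes together gave 37 calls, and without library 9 they gave 23, without library 10 also 23, and without library 12 they gave 19.

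Host and hairpin both rose past the threshold in 2 pairs, COL27A1 with mir-455 and EML2 with mir-330. Only 5 called precursors had a tested host. Of all tested genes 23.9% rose past the threshold, and of all tested precursors 10.8% did. Whether hosts and hairpins rose together more often than these shares was not tested. COL27A1, a fibrillar collagen gene that holds mir-455, rose from 0.270 and 0.237 RPKM to 1.59 and 1.67 (log2 fold change 1.5, adjusted p = 6.57e-06). EML2, a microtubule-associated protein gene that holds mir-330, rose from 6.26 and 6.58 to 7.98 and 8.27 (0.32, adjusted p = 0.0309). H19, an imprinted non-coding RNA that contains mir-675, rose from 1.83 and 2.47 to 12.5 and 13.3 (2.35, adjusted p = 2.48e-07). The call of EML2 was lost without any 1 of the 4 libraries (0.0784 to 0.141), and those of COL27A1 and H19 were kept. The H19 hairpin mir-675 had 0.459 and 1.36 RPKM in normoxia and 5.37 and 4.36 in hypoxia (2.0, adjusted p = 0.0517), just above the threshold. For mir-198 the host FSTL1 and the hairpin were both lower: FSTL1 fell from 8.17 and 8.81 to 4.84 and 4.42 (-0.81, adjusted p = 0.000333). As mir-675 and mir-198 lie within the transcripts of H19 and FSTL1, host and hairpin values may share reads, which was not tested.

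**Figure D4:**
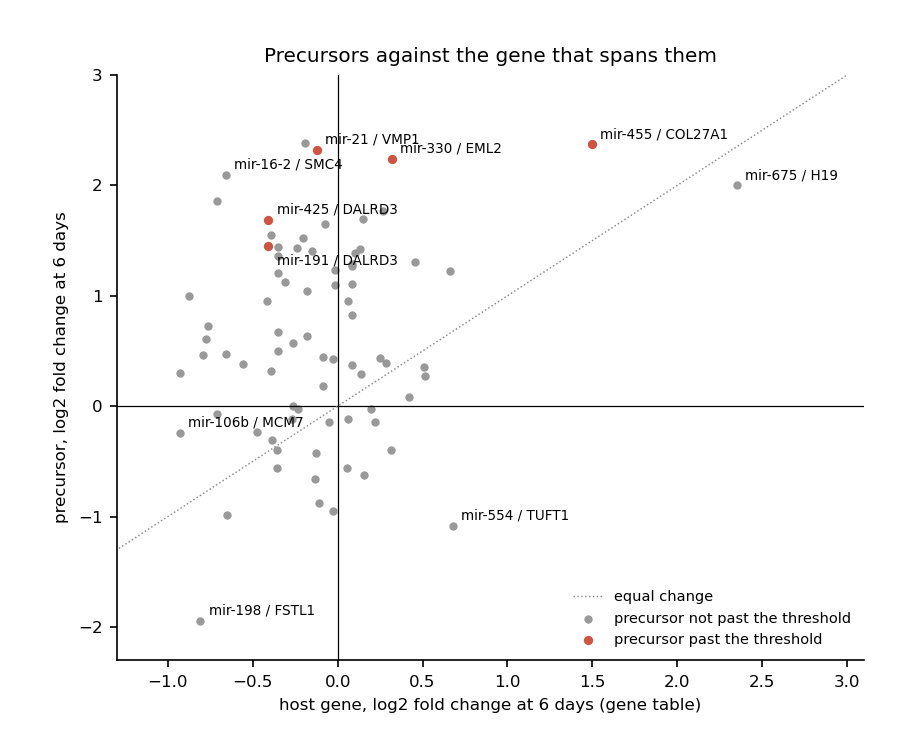
Log2 fold change at 6 days of each tested precursor (y axis) against that of the gene that spans it on the same strand (x axis), for the 78 precursors with a tested host gene. Red points are precursors past the threshold, and the dotted line marks equal change. mir-21, mir-425 and mir-191 lie high on the y axis with hosts at or below 0, while mir-455 with COL27A1 and mir-675 with H19 lie to the right.

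The precursor values are in part also present in the gene table as genes of their own. Of 150 tested precursors with a gene row, 84 had equal values in all 12 libraries within 0.1%, and 128 had at least 90% of the precursor value. All 18 called precursors had at least 98.2%, so the gene table is no second measurement of them. For mir-675 the gene row held 4.42% of the precursor value, and for mir-198 it held 2.67e-07%. Of the 150, 9 had a gene row with under 1% of the precursor value.

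Of 29 genes that make and load miRNAs 27 were tested at 6 days, and 2 rose (23.9% of all tested genes did), 4 fell (18.3%) and 21 did not pass, with a median of -0.07. PRKRA, a partner of DICER1, rose from 15.7 and 13 RPKM to 23.1 and 22.1 (log2 fold change 0.64, adjusted p = 0.00294). DDX17, a helicase of the DROSHA complex, rose from 59.1 and 58.6 to 84.2 and 78.7 (0.46, adjusted p = 0.00291). DROSHA fell from 6.99 and 7.49 to 5.95 and 5.32 (-0.34, adjusted p = 0.0171). LIN28B, which blocks let-7 maturation, fell from 6.71 and 7.0 to 5.55 and 4.52 (-0.42, adjusted p = 0.00803), and DIS3L2, which degrades uridylated let-7 precursors, fell from 2.64 and 2.41 to 1.23 and 1.53 (-0.69, adjusted p = 0.00391). EIF2C4, also called AGO4, fell from 2.87 and 2.78 to 2.01 and 2.08 (-0.39, adjusted p = 0.0215). DICER1 had 8.09 and 8.10 against 7.13 and 7.09 (-0.18, adjusted p = 0.0926). Without library 10 or 12 the calls of DROSHA (adjusted p = 0.109 and 0.126) and LIN28B (0.0545 and 0.087) were lost, and that of EIF2C4 was lost without any 1 of the 4 libraries (0.0661 to 0.097). Whether these changes had a part in the precursor values was not tested.

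The library totals inferred from the steps of low values were 25.2 to 51.8 M reads (M is 1e6), and 29.8, 30.3, 33.2 and 25.2 M in libraries 9 to 12. One read on a hairpin of 80 bases is worth 0.241 to 0.497 RPKM, so values near 1 RPKM rest on a few reads. PCR copies are not independent molecules, and floors cover counting error only. Epithelial markers EPCAM (35.7 RPKM in normoxia and 40.4 in hypoxia, means) and KRT18 (26.3 and 24.8) were present. KRT8 was low (0.760 and 0.907), and KRT7, CDH1, PAX8, WT1, MUC16 and MSLN were below 0.25 RPKM in every library of 6 days. The summed level of 5 fibroblast genes, mostly DCN and LUM, was 28.8 to 29.5 RPKM in normoxia and 39.5 to 42.6 in hypoxia, and that of 5 immune and of 4 endothelial genes was below 0.5. The part of these in the precursor values was not tested.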

How the data were processed

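RNA of 12 A2780 libraries was measured, and the authors deposited RPKM per precursor and RPKM per gene symbol, with a column for each library. Partek 6.6 and the build hg19 are named in the submitters' processing notes. How reads were aligned, filtered and totalled is not given in the sources used here. RPKM are not counts, so no count model was fitted. The 166 precursors and, apart, 11933 genes with at least 1 RPKM in at least 2 libraries were tested by fitting 6 group means to log2(RPKM + 0.5) (limma 3.58.1, R 4.3.3), with an intensity trend, two-sided tests and Benjamini-Hochberg adjustment at 0.05. Fold changes on this scale understate those of low features. Reads were inferred from steps of low values, within 0.05 of whole numbers in 96.3 to 98.9% of values up to 20 reads. The procedure was tested on simulated data.

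The precursors and lists were chosen with earlier results of these data known. Named precursors were those past the threshold, the 8 highest and 8 lowest non-overlapping changes with at least 2 RPKM in the higher group, the 10 of highest level, mir-210, mir-21 and mir-675, and the 4 of highest level in each list, of which the text prints the main ones. Host genes span a hairpin on the same strand in the RefSeq tables (GRCh38.p14), which gave a strand for 136 precursors. Symbols of genes are as deposited. Python 3.11.15 and matplotlib 3.10.9 were used. Alternatives were other pseudocounts, filters, scalings, no trend, fewer libraries, and centring on the median gene, added after seeing the data.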

Additional observations from a re-analysis of the deposited data

How the results depend on the processing

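The main setting gave 18 calls at 6 days, of which a pseudocount of 0.1 left 9. Total calls, new ones included, were 35 (33 higher) with a pseudocount of 1 and 28 with one of 1 inferred read. No filter on low values gave 10 in total and quantile normalization gave 1. Centring on the median precursor gave 7, and the 4 libraries alone gave 0. Of the 18 themselves, 10 were lost with no filter on low values and 16 with centring on the median precursor. Leaving out 1 of the 4 libraries of 6 days gave 1 to 7 calls at 6 days, and leaving out 1 of the 4 of 48 hr gave 1 to 2 calls at 48 hr. For 6 days minus 6 hr, centring on the median precursor gave 1 call, lower. Of host and machinery genes, 37 were called, and leaving out 1 library gave 19 to 25.

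The log2 fold changes that changed sign belonged to precursors that did not pass. Under quantile normalization they were let-7a-1 (-0.10), let-7d (-0.39), mir-1248 (-0.11), mir-15b (-0.37), mir-1826 (0.43), mir-25 (-0.56), mir-423 (-0.37), mir-92a-1 (-0.12) and mir-93 (-0.45). Under centring on the median precursor they were let-7d (-0.34), mir-15b (-0.37), mir-1975 (-0.086), mir-25 (-0.55), mir-423 (-0.24), mir-92a-1 (-0.023), mir-92a-2 (-0.071) and mir-93 (-0.43). With 1 library left out, mir-141 ranged from -1.20 to 0.89, mir-1826 from -1.71 to 0.51 and mir-25 from -0.23 to 0.82. The cause was not tested. Of the other values of named precursors under alternatives, 500 kept their direction and side of the threshold, 129 no longer passed and 34 newly passed.

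No paired analysis was possible because the groups compared share no replicate numbers: the labels number the libraries 1 to 12. With 2 libraries a group the spread is estimated from all 6 groups, and a group left with 1 library is assumed to vary like the others. Depth limits precursors near 1 RPKM, which rest on a few reads.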
